A study of Arabidopsis thaliana with 96 samples.

Results

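Accessible chromatin was described at 10 genes that set up and pattern the leaf, out of 27444 nuclear protein-coding genes of *Arabidopsis thaliana*. They are the KNOX homeobox genes STM, KNAT1, KNAT2 and KNAT6, the KNOX repressors AS1 and AS2, the HD-ZIP III genes PHB, PHV and REV, and the KANADI gene KAN1. They were chosen by locus and not by a measured value, though with earlier results of these data known. A gene was counted as accessible in a file when a peak summit lay in its window, from 2000 bp upstream of its start to 500 bp past its end in the TAIR10.1 annotation. The study mapped accessible chromatin by ATAC-seq in leaf nuclei of natural accessions to ask how conserved noncoding sequences vary within the species. The lists used here are those of Ad-0, En-2, Hi, Mt and Og, whose peaks carry reference chromosome names, and of Col-0, the reference accession, whose positions lie within 150 bp of the reference. The study's methods describe alignment of the reads to the genome of each accession. In the first file of each accession, however, the 1000 highest Og summits had an Ad-0, En-2, Hi or Mt summit within 300 bp in 86.1% to 93.6% of cases, displaced by a median of -1 to 0 bp, so these lists share 1 set of positions, which was taken as that of the reference. An untreated Col-0 group, whose file headers name naked DNA, gave the background without chromatin. All 7 groups were labelled as leaf from plants raised in growth chambers under long days, with no stated genotype other than the accession and with plant age and leaf stage not given in the sources used here. Each group had 4 files, and the 28 files used are part of 96 in the series.

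Class I KNOX proteins keep cells of the shoot meristem undetermined, and their genes are switched off where a leaf is initiated. The MYB protein AS1 and the LBD protein AS2 act together to keep KNAT1, KNAT2 and KNAT6 silent in leaves, and Polycomb proteins are known to hold such silent genes under repressive histone marks. The upper side of the blade is specified by the HD-ZIP III proteins, whose transcripts are cleaved under the guidance of miR165 and miR166, and the lower side by the KANADI proteins.

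The 4 files of each of the 6 accessions did not differ beyond sampling noise. The dispersion index is the squared deviation of pileups at shared summits over that of draws from 1 library. Over 36 pairs of files of 1 accession it was 0.815 to 0.923. Over 10 pairs of first files of different accessions, with Col-0 in none of the pairs, it was 3.12 to 7.83. It was 0.745 to 4.88 over the 6 pairs of untreated Col-0, whose files thus did differ beyond it. Each accession was therefore counted as 1 sample, no test between accessions was made, and intervals cover counting error only. The files of the 6 accessions held 1463227 to 4754108 tags and listed 5564 to 21327 nuclear peaks, fewest in Hi and most in Mt, while those of untreated Col-0 held 10822758 to 11043945 tags and listed 580 to 754 peaks. The height of a peak is given as the pileup at its summit per 1000000 tags of the file (ppm). The lowest pileup listed lay between 2.94 and 4.52 ppm in the 6 accessions, so a gene without a summit is one with no peak over this level, and the local background that a peak must exceed is not listed where none was called. All 4 mesophyll markers had a summit in each of the 6 accessions, 3 of them in all 24 files and CAB3 in 14. The pollen marker VGD1 had none in any file. Of the shoot meristem markers CLV3 had a summit in 15 of 24 files and WUS in 3, all of Mt. Of the root markers CASP1 had a summit in 18 files and PHT1;2 in none. The guard cell markers KAT1 and FAMA had one in 12 and 1 files, the trichome marker GL2 in 4 and the phloem marker SUC2 in 3. The floral markers AG, AP3 and PI had one in 3, 4 and 1 files. Of the 4 seed markers CRA1 had a summit in 24 files, OLEO1 in 20 and also in 1 of untreated Col-0, AT2S1 in 4, all of Mt, and AT2S3 in none, and a listed peak was not read as a measure of expression.

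Of the 10 genes, 9 had a summit in at least 1 file of the 6 accessions and none had a summit in untreated Col-0, where 1.87% of all nuclear genes had one. At least 1 file listed a summit for 5 members in Ad-0, against 34.1% of all nuclear genes. The count was 6 in En-2 (54.8% of all genes), 5 in Hi (32.4%), 9 in Mt (78.4%), 6 in Og (64.1%) and 6 in Col-0 (62.3%). KNAT6, AS1, PHB and KAN1 had a summit in each of the 6 accessions, as did 24% of all genes. Of these, KNAT6, AS1 and PHB had one in all 24 files (11% of all genes). STM had none in any file (18.1% of all genes), and STM and KNAT2 were the 2 members listed in at most 2 of the 24 files (27.2% of all genes). When all 4 files of an accession had to list a summit, the count was 5 in Ad-0 (17.9% of all genes), 4 in En-2 (34.7%), 3 in Hi (17%), 7 in Mt (57.9%), 4 in Og (43.4%) and 6 in Col-0 (47.4%), and 0 in untreated Col-0 (0.463%). The windows of the members were longer than most, with a median of 7437 bp against 4578 bp for all genes, and the counts were not corrected for length. Without Mt, 7 of the 10 genes had a summit, KNAT2 and REV being the 2 that dropped out. The share of all genes that keep a summit without Mt was not computed, so this count was not read as particular to the members.

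**Figure D1:**
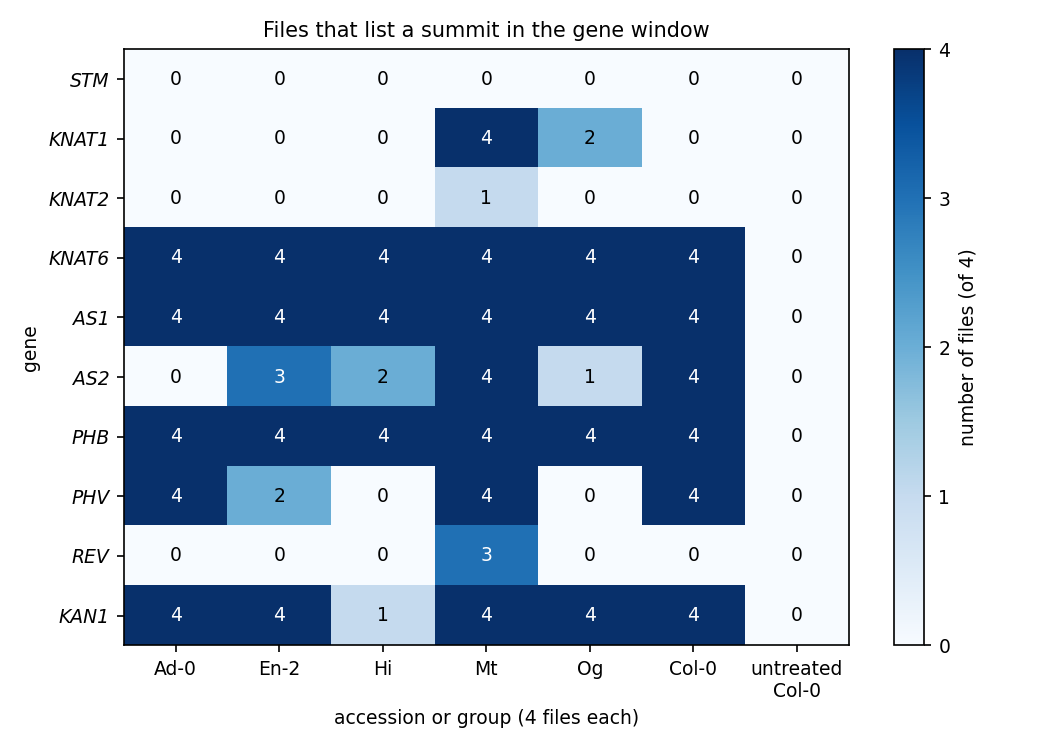
Number of files, of 4 per group, that list a peak summit in the window of each gene (rows), for the 6 accessions and untreated Col-0 (columns). KNAT6, AS1 and PHB are at 4 in each of the 6 accessions, STM is at 0 throughout, and the last column is 0 for all 10 genes.

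The 204 summits in these windows formed 26 regions when summits within 150 bp of the next were joined. Of these regions 10 lay upstream of a gene, 13 inside it and 3 downstream, or 38.5%, 50% and 11.5%, against 53.8%, 30.7% and 15.4% of 45732 regions in the windows of all genes. In the members 11.5% of the regions were listed in all 24 files, against 6.55% over all genes, and 50% were listed in a single accession, against 35.1%. Of the 13 regions of a single accession, 12 were in Mt, which had the longest lists, and 9 were in a single file.

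**Figure D2:**
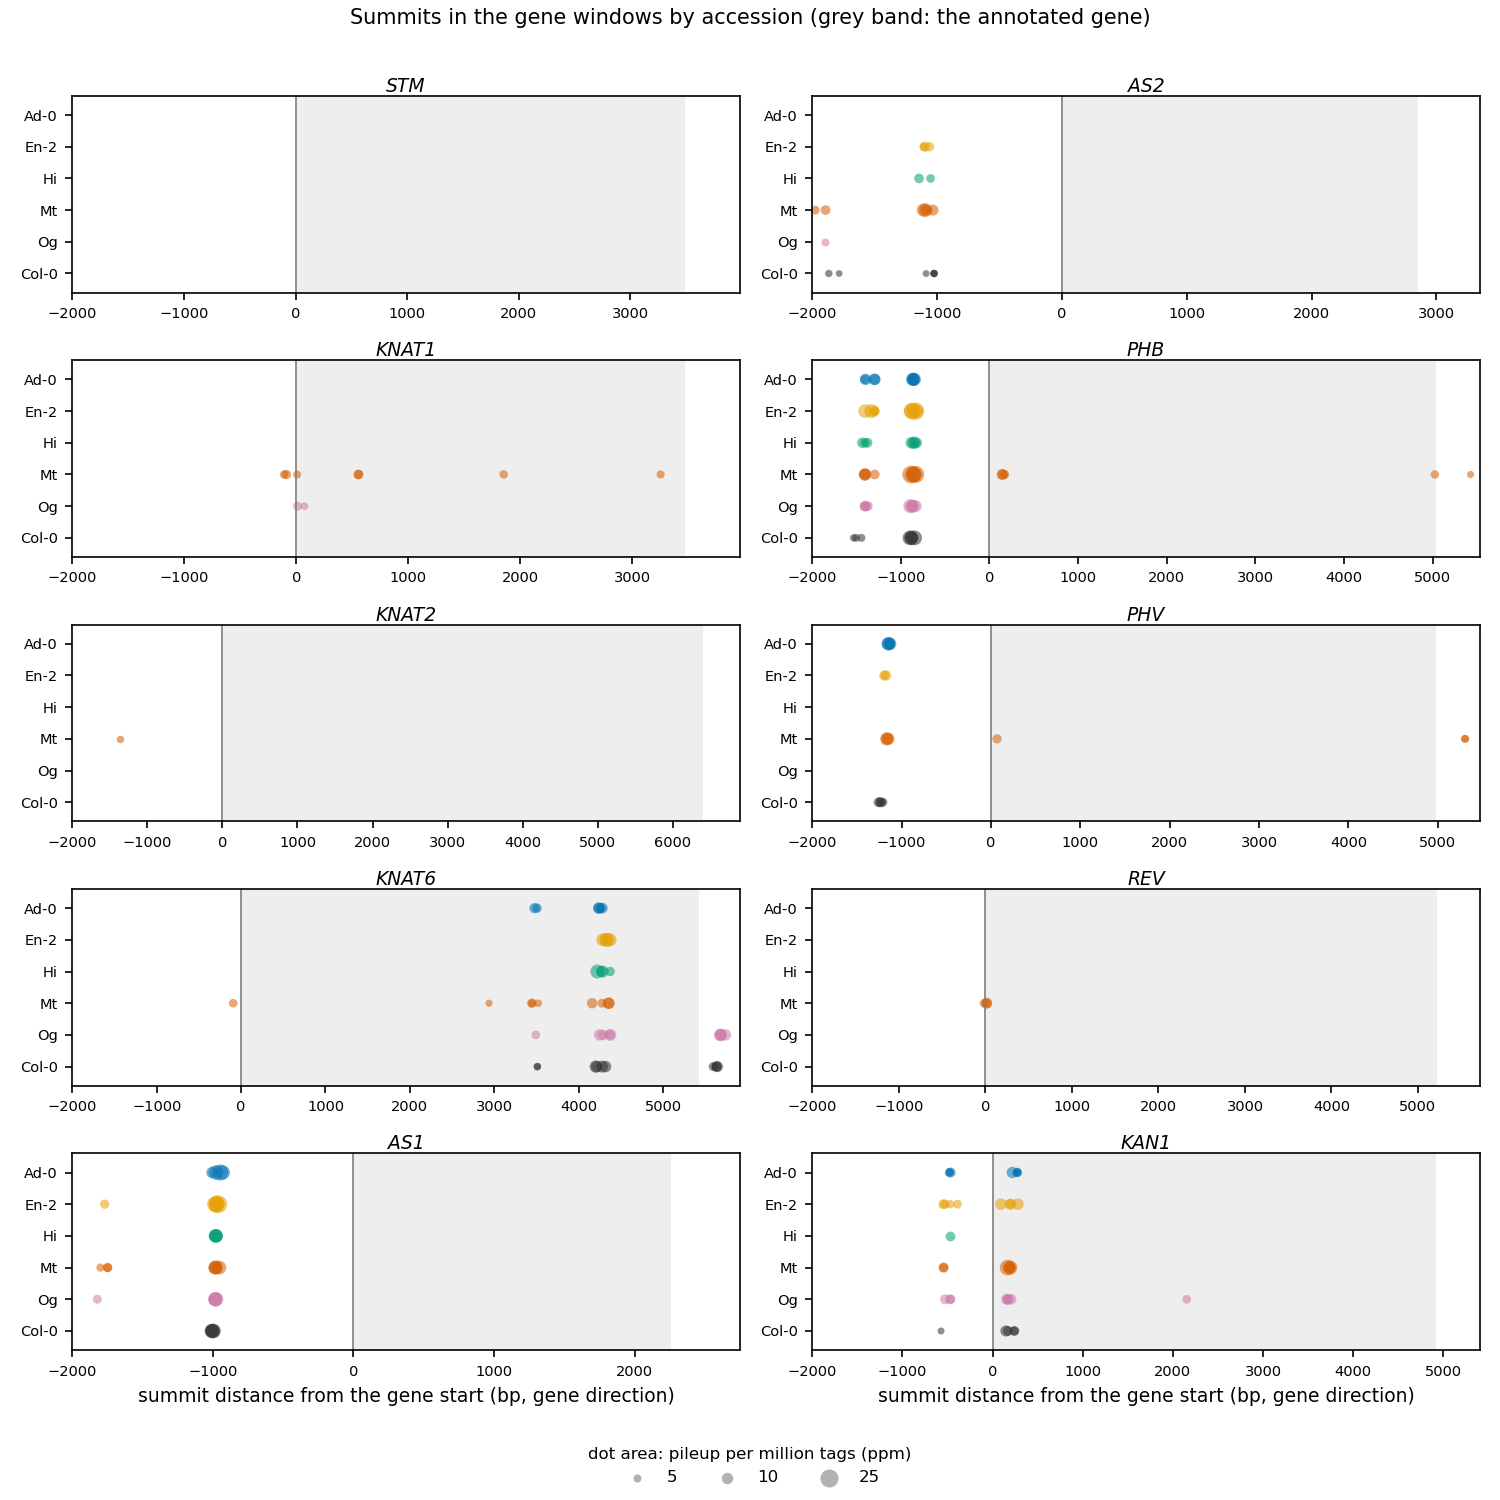
Position of each summit relative to the annotated start of its gene, in bp in the direction of the gene, for the 6 accessions, and the dot area is proportional to the pileup in ppm and the grey band spans the annotated gene. The main regions of AS1, PHB and KNAT6, centred at -979, -858 and 4286 bp, are filled in every accession, while STM is empty and KNAT2, REV and most of KNAT1 are filled by Mt.

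Among the KNOX genes STM (AT1G62360, chr1:23058582-23062063, minus strand), which maintains the shoot meristem, had no summit in its window of 5982 bp. The summit nearest to this window lay 8942 bp from it in Ad-0, 8910 bp in En-2, 8900 bp in Hi, 1718 bp in Mt, 936 bp in Og and 1941 bp in Col-0. KNAT1 (AT4G08150, chr4:5147699-5151159, minus strand), also called BREVIPEDICELLUS, which shapes the internode and pedicel, had summits in 4 files of Mt and 2 of Og and in none of the other 4 accessions. Its region at the start, 7 bp into the gene in the 5′ UTR, had pileups of 6.73, 5.70 and 5.08 ppm in Mt replicates 1, 2 and 4, and of 4.56 and 6.19 in Og replicates 1 and 4. These lay in the lower part of their files, on average at percentile 16.0 of the nuclear peaks in Mt and 13.3 in Og. The 3 other KNAT1 regions, 555 bp, 1852 bp and 3253 bp into the gene, were in Mt only, in 2, 1 and 1 files. KNAT2 (AT1G70510, chr1:26576486-26582879, plus strand), which acts in the carpel, had 1 summit in Mt replicate 3, with 4.43 ppm at percentile 0.774 of that file. No accession other than Mt and Og therefore listed a summit at STM, KNAT1 or KNAT2.

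KNAT6 (AT1G23380, chr1:8297241-8302651, minus strand), which acts at organ boundaries and is the closest relative of KNAT2, differed from the other 3 in having a region in all 24 files. The region was centred 4286 bp past the start, in the longest of its 4 introns. This is intron 3, of 3676 bp (chr1:8297989-8301664, minus strand), and the centre lay 376 bp before the next exon. The corresponding longest introns measured 690 bp in STM, 683 bp in KNAT1 and 4162 bp in KNAT2, where intron 3 is also the longest, and none of these held a summit in any file. The reference sequence of the 200 bases about the centre is shown because it is the most constant accessible site among the KNOX genes, in the direction of the gene and with repeats of GAGAGAGA in capitals.
KNAT6 intron 3, chr1:8298266-8298465, minus strand: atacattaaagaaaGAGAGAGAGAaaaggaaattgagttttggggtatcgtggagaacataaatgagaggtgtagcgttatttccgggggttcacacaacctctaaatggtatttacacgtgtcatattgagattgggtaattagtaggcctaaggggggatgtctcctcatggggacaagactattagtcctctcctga

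At this site the pileup was 8.58, 10.4, 7.12 and 8.77 ppm in Ad-0 and 13.3, 13.0, 15.4 and 13.5 in En-2. It was 15.0, 9.17, 6.73 and 11.3 in Hi, 6.17, 10.3, 9.97 and 8.47 in Mt, and 8.71, 7.55, 11.1 and 9.91 in Og, against 10.3, 11.3, 10.2 and 10.9 in Col-0. The files of En-2 lay above all of Col-0 and those of the other 4 accessions overlapped Col-0, but the 95% Poisson interval of the summed En-2 pileup, 11.0 to 17.1, overlapped that of Col-0, 9.27 to 12.3. The mean of En-2 was 1.29 times that of Col-0, and 0.996 times after scaling on 1925 regions that all 24 files share. After that scaling the interval of Mt, 5.22 to 8.72, was below that of Col-0, 8.92 to 11.8. The other summits of KNAT6 were weaker. A region 3485 bp past the start, in the same intron, was listed in 2 files of Ad-0, 3 of Mt, 1 of Og and 2 of Col-0, and regions 93 bp upstream and 2938 bp past the start in 1 file of Mt each.

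The last region in the KNAT6 window belongs by position to its neighbour. It lay 274 bp past the end of KNAT6 and 26 bp from the start of MENG, which encodes a methyltransferase of phylloquinone synthesis. All 4 files of Og listed it, with 12.0, 9.23, 10.2 and 12.0 ppm, and all 4 of Col-0, with 8.15, 6.33, 7.04 and 9.68, and none of the 16 files of Ad-0, En-2, Hi and Mt did. A peak of the mean level of Og and Col-0, rescaled to the depth and the shared regions of each list, would have had a pileup of 12.9 tags in Ad-0, 18.1 in En-2, 15.0 in Hi and 20.6 in Mt. The lowest pileups listed there were 7, 6, 9 and 6 tags, and 61.7% of the listed peaks of En-2 and 62.6% of those of Mt were lower than such a peak. In Ad-0 and Hi these shares were 24.7% and 23.6%. At the lower level of Col-0 alone these shares were 45.5% in En-2 and 52.2% in Mt, and 8.79% in Ad-0 and 4.55% in Hi. A peak of either level would therefore lie well inside the range that the lists of En-2 and Mt cover. The local background at this place is not listed for them, and the reason for the missing summits was not tested. Differences in sequence between these accessions at this place, which affect whether reads map, were not tested.

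AS1 (AT2G37630, chr2:15781232-15783480, minus strand), the MYB repressor, had its main region in every file. It was centred 979 bp upstream of the start, in no annotated gene, with summits between 1008 and 930 bp upstream in all 24 files, and it was 250 to 459 bp wide. Its reference sequence is shown in the direction of the gene, with GAGAGAGA in capitals.
AS1 upstream region, chr2:15784360-15784559, minus strand: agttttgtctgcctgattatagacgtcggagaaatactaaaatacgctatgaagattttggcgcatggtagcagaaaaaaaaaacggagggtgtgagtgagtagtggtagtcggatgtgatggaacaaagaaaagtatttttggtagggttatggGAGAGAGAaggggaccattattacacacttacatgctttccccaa

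The pileup at this region was 16.1, 19.8, 9.67 and 16.0 ppm in Ad-0 and 25.3, 19.8, 20.0 and 18.9 in En-2. It was 14.1, 10.1, 11.2 and 15.4 in Hi, 14.6, 12.6, 13.3 and 15.8 in Mt, and 13.3, 16.8, 12.7 and 16.1 in Og, against 15.2, 14.0, 14.9 and 17.0 in Col-0. En-2 lay above Col-0 in every file and by its interval, 17.5 to 25.1 against 13.6 to 17.2, and the other 4 accessions overlapped Col-0 in both. The En-2 ratio to Col-0 was 1.37 by tags and 1.06 after scaling on the shared regions, and the median pileup of the shared regions, relative to their geometric mean over the accessions, was 1.34 in En-2 against 1.04 in Col-0. With that scaling the En-2 interval, 13.0 to 18.6, overlapped that of Col-0, 13.1 to 16.5, and the Ad-0 interval, 17.4 to 25.1, was above it. A weaker region 1770 bp upstream was listed in 1 file of En-2, 3 of Mt and 1 of Og.

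AS2 (AT1G65620, chr1:24398143-24400989, plus strand), the partner of AS1, was listed in 14 of 24 files. Its region 1091 bp upstream of the start was listed in 3 files of En-2, 2 of Hi, all 4 of Mt and all 4 of Col-0, and in none of Ad-0 and Og. The sequence is shown for comparison with that of AS1, in the direction of the gene, and none of the motifs searched occurs in it.
AS2 upstream region, chr1:24396953-24397152, plus strand: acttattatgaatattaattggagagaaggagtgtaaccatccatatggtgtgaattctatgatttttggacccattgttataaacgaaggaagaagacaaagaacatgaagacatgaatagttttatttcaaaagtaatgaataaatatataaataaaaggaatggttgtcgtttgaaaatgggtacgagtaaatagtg

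The pileup was 7.98, 5.47 and 6.76 ppm in the 3 files of En-2, 7.26 and 5.88 in the 2 files of Hi, and 9.53, 13.1, 14.4 and 8.47 in Mt, against 3.65, 4.15, 4.48 and 3.79 in Col-0. Every listed value of these 3 accessions was above Col-0. The lists of En-2 and Hi hold no value below 3.99 and 4.04 ppm, which is within the range of Col-0 here. For En-2 and Hi this order was therefore not read as a difference. The intervals pool the listing files only. Of the 3 accessions Mt alone was listed in all 4 files. By tags Mt alone had an interval, 9.04 to 14.2, apart from that of Col-0, 3.16 to 5.03. Mt was 2.84 times Col-0 by tags and 2.30 times after scaling on the shared regions, where its interval, 7.06 to 11.0, was still apart from that of Col-0, 3.04 to 4.84. The scaled interval of Hi, 5.85 to 12.5 over its 2 listing files, was above that of Col-0 as well, and that of En-2 overlapped it. The Col-0 values lie near the lowest that the other lists hold, so that for Ad-0 and Og a level like that of Col-0 corresponds to pileups of 5.51 and 9.54 tags, under or close to the lowest listed, 7 and 8 tags. A level at or below that of Col-0 was therefore not detectable in Ad-0. In Og the level of Col-0 was at the limit of the lists, with 0.185% of the listed peaks lower. A peak at the mean level of Mt and Col-0 would have had 9.10 tags in Ad-0, where 3.60% of the listed peaks were lower, and 15.7 tags in Og, where 24.9% were lower. A further region 1900 bp upstream, in 2 files of Mt, 1 of Og and 2 of Col-0, lay 740 bp from KOR2, a neighbouring endoglucanase gene, which is nearer to it than AS2.

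**Figure D3:**
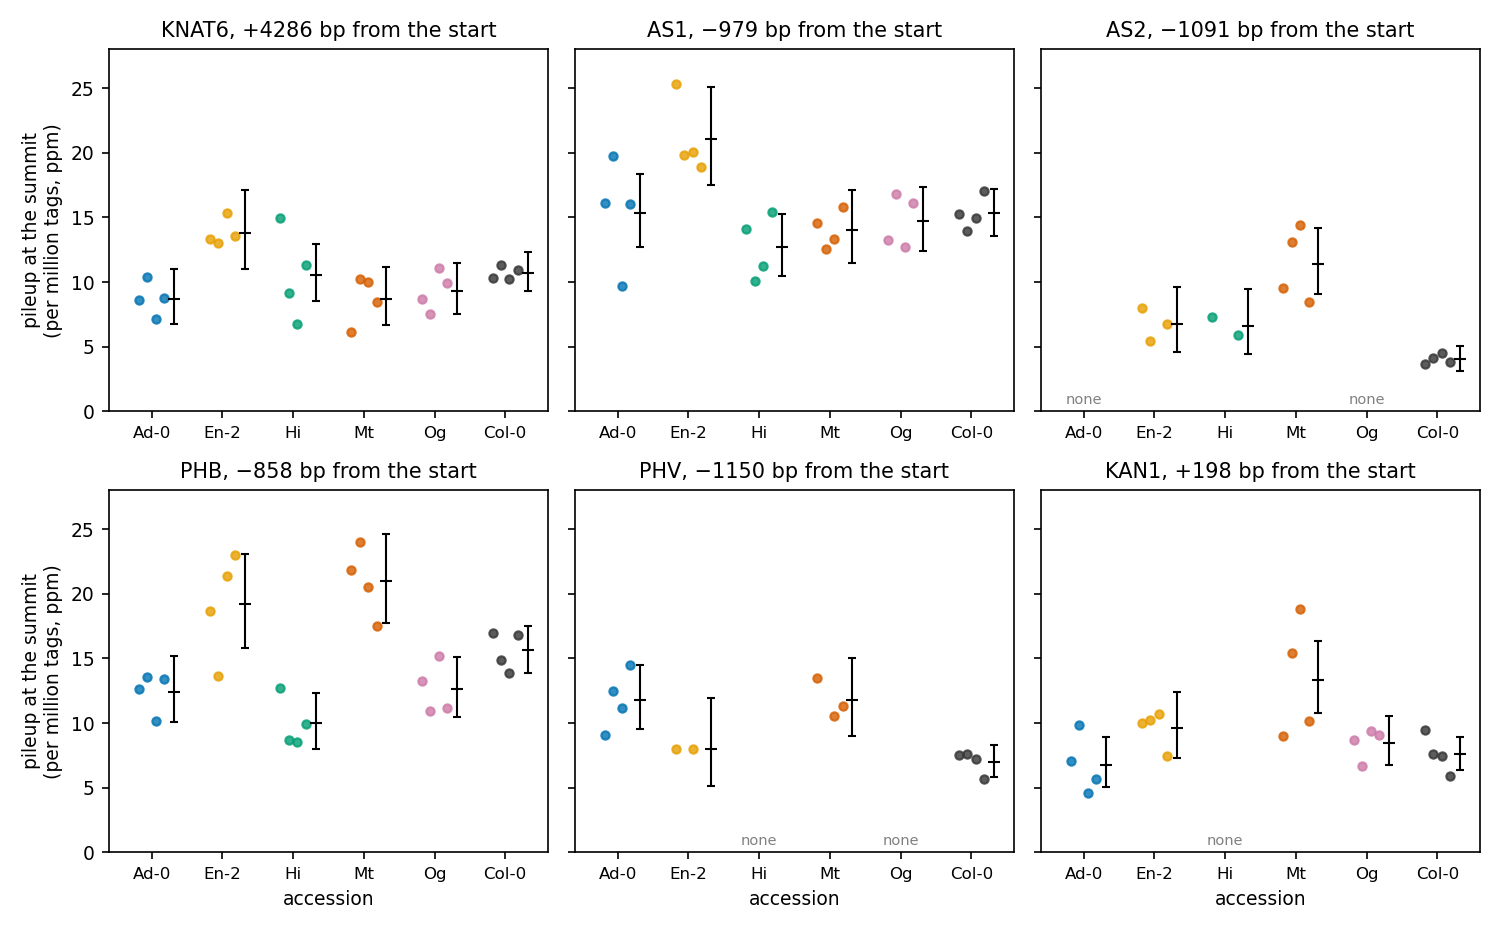
Pileup at the summit (ppm) in each file (dots) at 6 regions, by accession, with the pooled value of the listing files and its 95% Poisson interval in black. Accessions with no listed summit are marked none. At AS1 the En-2 interval, 17.5 to 25.1, lies above that of Col-0, 13.6 to 17.2. The intervals of Mt at AS2, PHB and KAN1 and of Ad-0 at PHV also lie above Col-0, as does that of Mt at PHV, over 3 listing files. That of Hi at PHB lies below Col-0. After scaling on the shared regions, those of En-2 at AS1, of Mt and Hi at PHB, and of Mt at KAN1 and PHV overlap Col-0.

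The HD-ZIP III genes differed from each other in these lists. PHB (AT2G34710, chr2:14639323-14644355, minus strand) had 2 regions upstream that were listed in each of the 6 accessions, PHV (AT1G30490, chr1:10796124-10801093, minus strand) had 1 that was not listed in 2 accessions, and REV (AT5G60690, chr5:24396981-24402195, plus strand) had none upstream. The main PHB region was centred 858 bp upstream of the start and was listed in 24 files, with summits 821 to 897 bp upstream. The sequence of the PHV region is shown in the direction of the gene, because it holds CTGTCA, the reverse complement of the KNOX core TGACAG, in capitals. These letters lie at the end nearest the gene, outside the listed peaks of Ad-0 and En-2, which start at chr1:10802160 or later. The lowest start in the lists with reference names, chr1:10802152 in Mt replicate 3, only meets their edge. Col-0 positions near PHV were displaced by a median of 95.5 bp, so its peaks were not placed against them.
PHV upstream region, chr1:10802144-10802343, minus strand: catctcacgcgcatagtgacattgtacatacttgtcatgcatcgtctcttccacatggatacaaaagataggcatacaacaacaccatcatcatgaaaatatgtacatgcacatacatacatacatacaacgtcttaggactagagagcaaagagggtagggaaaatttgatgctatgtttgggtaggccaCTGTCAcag

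At the main PHB region the pileup was 12.6, 13.5, 10.2 and 13.4 ppm in Ad-0 and 18.6, 13.7, 21.4 and 23.0 in En-2. It was 12.7, 8.71, 8.52 and 9.95 in Hi, 21.9, 24.0, 20.5 and 17.5 in Mt, and 13.3, 10.9, 15.2 and 11.1 in Og, against 17.0, 14.8, 13.9 and 16.8 in Col-0. Mt lay above Col-0 and Hi below it in every file and by their intervals, 17.7 to 24.6 in Mt and 8.00 to 12.3 in Hi, against 13.9 to 17.5 in Col-0. After scaling on the shared regions these differences shrank, with ratios to Col-0 of 1.09 in Mt and 0.882 in Hi, against 1.34 and 0.639 by tags, and their intervals overlapped that of Col-0. By the authors' fold enrichment the ratio of Mt was 0.917, on the other side of 1, and that of Hi 0.535. The peak was 460 to 963 bp wide in Mt and 222 to 518 bp wide in the other 5 accessions.

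At the second PHB region, 1401 bp upstream, Col-0 stood apart from the other 5 accessions. Its pileup was 9.59, 6.76, 10.2 and 10.3 ppm in Ad-0, and 6.65, 8.88, 14.0 and 15.6 in En-2. It was 6.81, 8.52 and 7.69 in 3 files of Hi, 8.41, 11.1 and 11.9 in 3 files of Mt, and 7.05, 9.65, 6.96 and 6.60 in Og, against 5.02, 4.26 and 4.84 in 3 files of Col-0. Every listed value of the 5 accessions was above every value of Col-0, and the intervals of Ad-0, En-2 and Mt were apart from that of Col-0, 3.64 to 5.99. The intervals pool the listing files only, 3 each in Hi, Mt and Col-0, and after scaling on the shared regions those of all 5 accessions were above that of Col-0, the nearest being Og with 5.79 to 9.29 against 3.50 to 5.76. The listed summits lay 1291 to 1434 bp upstream in the 5 accessions and 1445 to 1532 bp upstream in Col-0. Col-0 positions near PHB were displaced by a median of 14.5 bp away from the gene. This is more than the gap between the 2 ranges, so a difference in place was not shown. In Mt replicate 2 a single peak of 963 bp covered both regions and had its summit in the main one. To set the regions against each other within a file, which removes depth and scaling, the pileup of the far region was divided by that of the near one, a comparison chosen after the values were seen. The pooled ratio was 0.742 in Ad-0, 0.588 in En-2, 0.739 in Hi, 0.523 in Mt and 0.598 in Og, against 0.310 in Col-0. The lowest file of the 5 accessions had a ratio of 0.357 and the highest of Col-0 had 0.338. The exact binomial interval of Col-0, 0.231 to 0.410, was below those of 4 accessions and overlapped that of Mt, 0.372 to 0.730.

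PHV, which acts together with PHB, had its region 1150 bp upstream listed in 4 files of Ad-0, 2 of En-2, 3 of Mt and 4 of Col-0, and in none of Hi and Og. The pileup was 9.08, 12.5, 11.2 and 14.5 ppm in Ad-0, 7.98 and 8.01 in En-2, and 13.5, 10.5 and 11.3 in Mt, against 7.51, 7.64, 7.25 and 5.68 in Col-0. The listed files of all 3 accessions lay above Col-0, with the interval of Ad-0, 9.50 to 14.5, apart from that of Col-0, 5.86 to 8.32. The intervals of En-2 and Mt leave out the files with no listed summit. That of Mt, 9.03 to 15.0, was above Col-0 by tags and overlapped Col-0 after scaling on the shared regions. That of En-2 overlapped Col-0 on both bases. The ratio of Ad-0 to Col-0 was 1.68 by tags and 2.39 after scaling on the shared regions, where the intervals, 13.0 to 19.8 in Ad-0 and 5.64 to 8.00 in Col-0, were still apart. The ratio of Mt over its 3 listing files was 1.68 and 1.36. The fold enrichment over the local background was 8.46 in Ad-0 and 4.90 in Mt, against 4.30 in Col-0, so that Ad-0 and Mt had like pileups over unlike backgrounds. A peak at the level of Col-0 would have had a pileup of 16.7 tags in Og, where 30.5% of the listed peaks were lower, and of 11.2 tags in Hi, where 1.60% were lower. At the mean level of Ad-0 and Col-0 it would have had 28.3 tags in Og, with 71.5% lower, and 19.0 tags in Hi, with 47.2% lower. On both bases such a peak would lie inside the range of the Og lists. In Hi a peak at the level of Col-0 would be near the limit and one at the mean level would not. The reason for the missing summits was not tested.

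REV, which patterns vascular tissue and lateral meristems, had a single region, 17 bp past the start in the 5′ UTR, in 3 files of Mt. Its pileup there was 8.97, 6.28 and 7.91 ppm. The regions of PHB and PHV close to their starts, 146 bp and 68 bp into the 5′ UTR, were in Mt only as well, in 3 files and 1 file. The 5 other accessions had no summit within the transcribed part of any of the 3 genes.

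The lists were also set against the miRNA target site, since that site is where the transcripts of these genes are cut. Both mature miRNAs share their seed, bases 2 to 8, in capitals for both. In each of the 3 genes the best match to the complement of miR165a lay across the junction of exons 4 and 5 of the coding sequence, with 3 mismatches, in capitals for the sites, and PHB and PHV have the same site.
miR165a: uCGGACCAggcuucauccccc
miR166a: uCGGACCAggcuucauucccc
PHB site: TTgggatgaagcctggtccgG
PHV site: TTgggatgaagcctggtccgG
REV site: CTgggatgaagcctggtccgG

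The sites began 1689 bp past the start of PHB, 1648 bp past that of PHV and 1806 bp past that of REV. The summit nearest to the site in any file was 1516 bp away in PHB, 1580 bp in PHV and 1788 bp in REV, each at the gene start and in Mt.

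KAN1 (AT5G16560, chr5:5406863-5411766, minus strand), a factor of the lower leaf side, had a region at its start in 5 of the 6 accessions. It was centred 198 bp past the start, in the 5′ UTR, where the annotation also has the long noncoding RNA AT5G02555, so the region cannot be given to 1 of the 2. The pileup was 7.07, 9.88, 4.58 and 5.68 ppm in Ad-0 and 9.98, 10.3, 10.7 and 7.44 in En-2. It was 8.97, 15.4, 18.8 and 10.2 in Mt and 8.71, 6.71, 9.42 and 9.08 in Og, against 9.44, 7.64, 7.46 and 5.89 in Col-0. Files of all 4 accessions overlapped Col-0, and only the Mt interval, 10.8 to 16.3, was apart from that of Col-0, 6.40 to 8.96. The ratio of Mt to Col-0 was 1.75 by tags and 1.42 after scaling on the shared regions, where the intervals, 8.43 to 12.7 in Mt and 6.16 to 8.62 in Col-0, overlapped. Hi listed no summit, and a peak at the lowest level of the other 5 would have had 11.8 tags there against a lowest listed pileup of 9 tags, with 1.60% of the listed peaks lower, and one at their mean level 14.1 tags, with 16.3% lower. The second KAN1 region, 474 bp upstream, was listed in 3 files of Ad-0, 4 of En-2, 1 of Hi, 2 of Mt, 3 of Og and 1 of Col-0. Its pileup was 4.68 to 7.63 ppm in Ad-0, 5.47 to 7.34 in En-2, 7.34 in Hi, 6.09 and 7.91 in Mt and 6.71 to 7.47 in Og, against 3.79 in the single file of Col-0. Every listed value of the 5 accessions was above that of Col-0, with intervals by tags that all overlapped its own, 2.24 to 5.98. After scaling on the shared regions the Ad-0 interval, 6.07 to 11.9 over its 3 listing files, was above that of Col-0, 2.16 to 5.76. The others still overlapped it. The lists of En-2 and Hi hold no value below 3.99 and 4.04 ppm, so any summit listed there had to be above this Col-0 value. In Ad-0, Mt and Og the lowest listed values were 3.56, 3.36 and 3.30 ppm, close to it. The order was therefore not read as a difference. A further region, 2154 bp into the gene, was in 1 file of Og.

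The 3 regions listed in all 24 files, of KNAT6, AS1 and PHB, were compared with Col-0 under 4 measures. By tags, their mean over Col-0 was 0.878 in Ad-0, 1.30 in En-2, 0.798 in Hi, 1.05 in Mt and 0.880 in Og. After scaling on the shared regions it was 1.25 in Ad-0, 1.00 in En-2, 1.102 in Hi, 0.853 in Mt and 0.895 in Og. Ad-0, Hi and Mt thus changed sides of 1 with the scaling, and the order of the accessions differed between the measures.

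**Figure D4:**
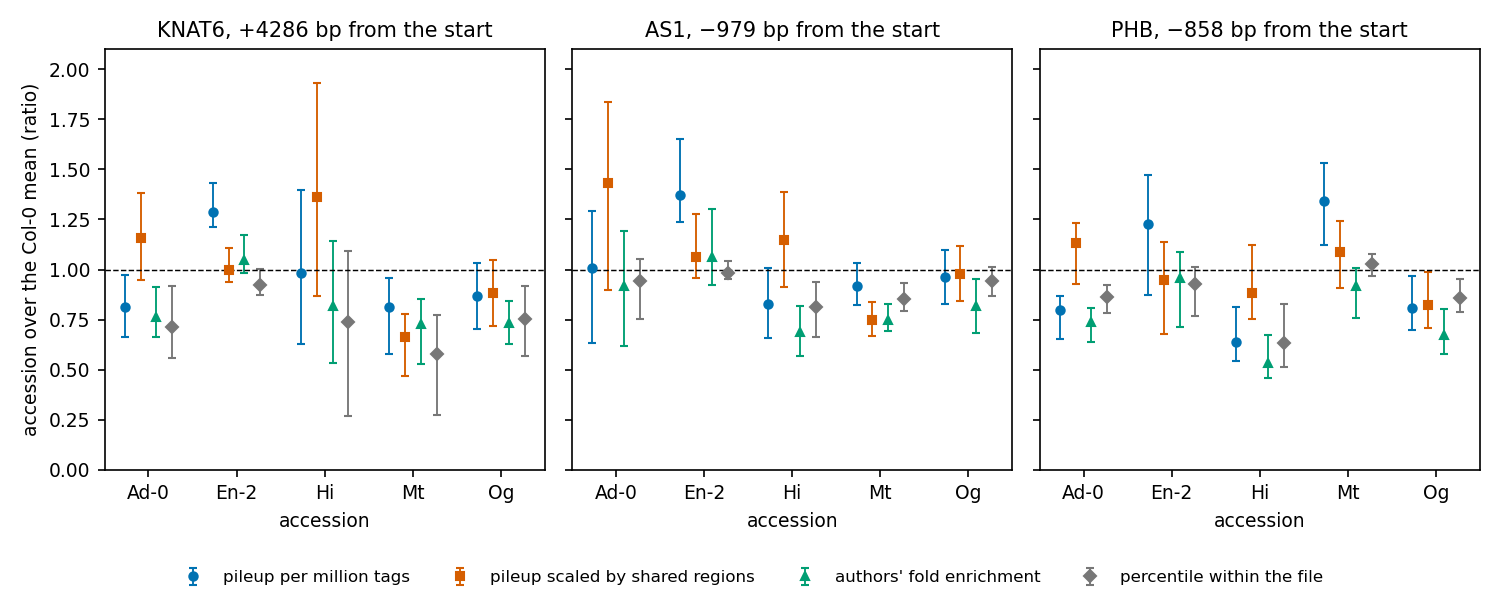
Ratio of each accession to the Col-0 mean at the 3 regions listed in all 24 files, under 4 measures (symbols), with the range over the 4 files as bars and a dashed line at 1. At AS1 the En-2 ratio is 1.37 by tags and 1.06 after scaling on the shared regions, and at PHB the Hi ratio is 0.639 and 0.882.

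The 26 regions were searched on both strands for 5 motifs in 300 bp about their centres. The KNOX core TGACAG occurred in 2 regions, against 7.95% of 29704 regions from all gene windows, and these were the PHV region 1150 bp upstream and the AS2 region near KOR2. The telobox AAACCCTA occurred in 1, the KNAT1 region 555 bp into the gene (5.82% of all regions). The KANADI site GAATATTC and the palindromic HD-ZIP III site occurred in none (0.909% and 0.0438% of all regions). The repeat GAGAGAGA occurred in 10 of the 26 regions, against 11.5% of all regions, among them the shared regions of KNAT6 and AS1, the far region of PHB, both main regions of KAN1 and the regions at the starts of KNAT1, KNAT6, PHV and REV. The tenth was the KNAT1 region 555 bp into the gene. This region and those at the starts of KNAT6, PHV and REV were listed in Mt only. The share over all regions was not matched for place in the gene or for number of files. Overlapping copies were counted as 1 region, and a match is a stretch of letters and not a bound site. A match in the 300 bp can also lie outside the listed peaks, as it does for Ad-0 and En-2 at PHV.

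The members were read beside 47 other genes of the same pathways. At least 1 file listed a summit for 16 of these in Ad-0, 32 in En-2, 12 in Hi, 41 in Mt, 31 in Og and 34 in Col-0, which is 34.0%, 68.1%, 25.5%, 87.2%, 66.0% and 72.3%, beside 34.1%, 54.8%, 32.4%, 78.4%, 64.1% and 62.3% of all genes. Of the 47 genes, 8 had a summit in each of the 6 accessions and 5 in none, and untreated Col-0 had none. Within the KNOX family, the class II genes KNAT3 and KNAT4, which are known to be expressed in leaves, had a summit in 24 files and KNAT7 in 22, while KNAT5 had one in 6 and KNATM, which lacks the homeodomain, in none. Among the BELL genes, whose proteins pair with KNOX proteins, BEL1 had a summit in 24 files and BLR in 1.

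In the boundary group CUC1 had a summit in 22 files and its close relative CUC2 in none. The YABBY gene YAB3 had a summit in 23 files and YAB2 in 1. In the small RNA branch of leaf polarity ETT had a summit in 22 files and AGO10, which sequesters miR166, in none. The Polycomb genes ranged up to SWN with 16 files, and LHP1 had none. The other HD-ZIP III genes, CNA with a summit in 9 files and ATHB8 in 8, lay below PHB and PHV and above REV, which had 24, 14 and 3. The other KANADI genes had one in fewer files than KAN1, KAN3 in 15, KAN2 in 13 and ATS in 6.

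**Figure D5:**
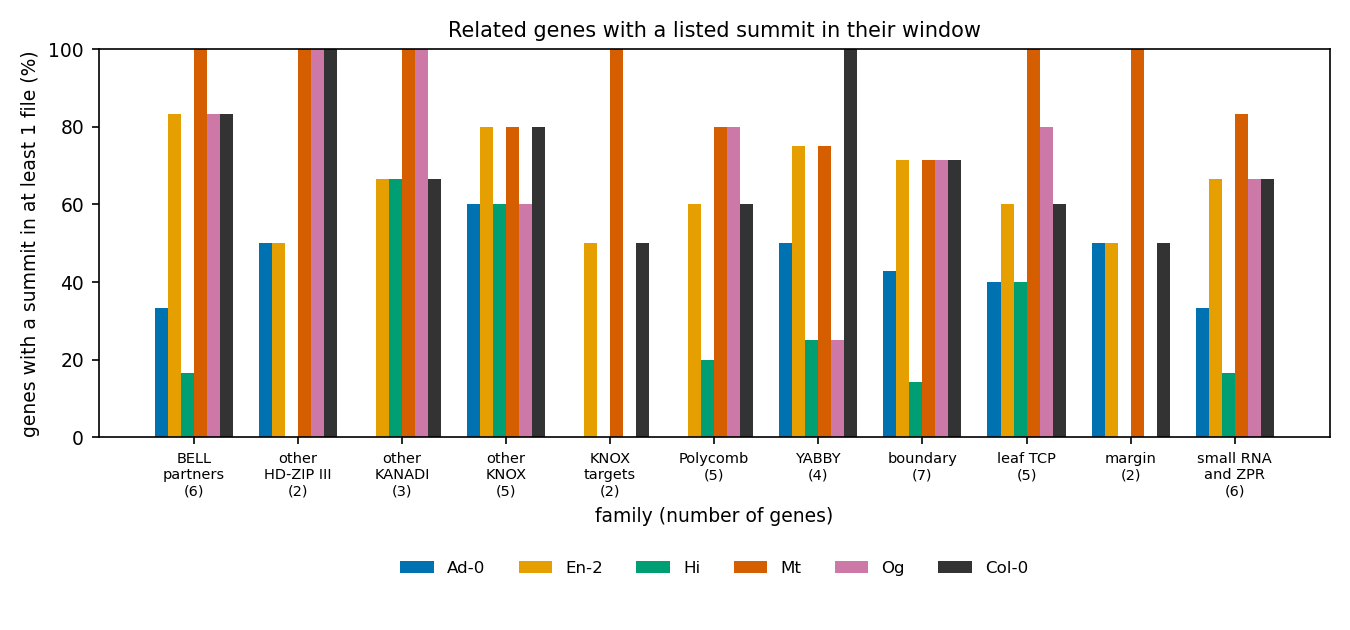
Share of genes with a summit in at least 1 of 4 files, by family of related genes (number of genes in brackets) and accession, as bars from 0. Over the 47 genes Mt has the most with a summit, 41, and Hi the fewest, 12.

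For the 4 members with a summit in every accession, the related genes with the most similar summed pileup in ppm in their windows were listed over the 6 accessions. They were KNAT3 for KNAT6 (Pearson r = 0.772), BOP1 for AS1 (r = 0.946), TCP4 for PHB (r = 0.966) and BEL1 for KAN1 (r = 0.857). The correlations rest on 6 libraries that differ in depth and number of peaks, which all genes share, and are given as a description.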

How the data were processed

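ATAC-seq was performed by the authors on leaf nuclei, and peaks were called on each file with MACS2 2.1.2 with no control, duplicates kept and a q-value cutoff of 0.05. The study's methods name a less strict q-value for its peaks, so the lists used here can differ from its peak set. Per the file headers reads were extended as single ends, and no shift for the transposase is stated. Bowtie 1.2.2 and the build TAIR10 are named in the submitters' processing notes. The deposited pileup is a signal, the height of extended tags at the summit, and it was divided here by the tags in the header. The authors' fold enrichment is a ratio to the background around the peak, and the deposited q-values are given as -log10. The reference used for genes and sequences was RefSeq TAIR10.1. Summits were matched to gene windows without converting positions, and summits of all 6 accessions within 150 bp of the next were joined into regions. The lists of the other accessions, on sequences of their own, were not used here. The sequence of the main PHB region is not reported here.

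The tags per file, 1463227 to 11043945 over the 7 groups, limit the precision, and exact Poisson intervals cover counting error only. The members, the list of 47 related genes and the markers were chosen with earlier results of these data known. All 10 members were named. Of the related genes, those that differed most within their family in the number of accessions or files with a summit were named, as were neighbours nearer to a region than the member, and the genes most like each member in pattern. The alternatives were a q-value of 0.001, a summit in all 4 files, a shorter window, overlap of the peak, the nearest gene alone, a pileup of at least 10 tags, a common floor, joining within 50 and 300 bp, 3 other measures of height and each replicate left out. The dispersion index was tested on simulated data. Python 3.11.15, NumPy 2.4.6, SciPy 1.17.1 and matplotlib 3.10.9 were used.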

Additional observations from a re-analysis of the deposited data

Results flagged for a closer look

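Of 33 sets of 4 files of 1 accession at 1 region, 1 held a file far from the rest, by a criterion that chance meets in about 1 of 20 sets. In Og replicate 2 the far region upstream of PHB had a pileup of 9.65 ppm (pileup per 1000000 tags), against 6.60 to 7.05 in the other 3 files of Og.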

How the results depend on the processing

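Peak lists hold no values below the caller's cutoff, and each accession is 1 sample, so depth and library limit every comparison between accessions. Of the counts, that of members with a summit in Hi fell to 3 from 5 when all 4 files had to list it, and the 26 regions became 14 without Mt, an alternative chosen after seeing the data, as was leaving out each replicate for that count. The other counts stayed within 1.5 times of those given. The mean over Col-0 of the 3 regions listed in all 24 files moved with the measure. With scaling on the shared regions it was 1.25 in Ad-0, 1.00 in En-2, 1.102 in Hi and 0.853 in Mt. With the fold enrichment it was 1.02 in En-2, 0.807 in Mt and 0.742 in Og, and with the percentile within the file 0.945 in En-2 and 0.834 in Mt. The cause was not tested. Of 105 alternatives at single regions, 82 moved by less than the spread of the files and 23 by more. No paired analysis was possible because no test was made, each accession being taken as 1 sample with 4 files.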
